A study of Mus musculus with 6 samples.

Results

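Elongated mouse neural tube organoids at day 7 were compared with elongated organoids at day 6 whose cells lie in the same deposited count table. The members are the cells that the authors' annotation assigns to day 7 or to day 6 in that table, 4967 of the 16282 cells of the series: 2402 at day 6, labelled batch 2, and 2565 at day 7, which carries no batch label. The organoids were grown from mouse embryonic stem cells that carry the reporters Sox1::eGFP and Bra::mCherry. Single cells were embedded in Matrigel drops in a 24-well plate and given a fibroblast growth factor, bFGF, at 12 ng/ml together with activin-A at 20 ng/ml until day 3, then kept in N2B27, a serum-free medium, which was renewed at day 5. The day 6 organoids were taken from these drops. For culture beyond day 6, organoids were freed with collagenase IV and dispase and re-embedded singly in new Matrigel on a 96-well plate, with medium changed daily. The day 7 library therefore differs from the day 6 library by 1 further day and by the transfer, and the effects of time, transfer, new medium and library cannot be told apart. About 100 organoids per condition were pooled, dissociated with TrypLE and processed with the 10x Genomics 3′ v3 kit, which counts each captured RNA molecule by a unique molecular identifier (UMI). There was 1 library on each day. No test of the difference between days was possible, and sizes of difference are reported with exact 95% intervals that cover counting error only.

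The neural tube is the embryonic precursor of the brain and spinal cord. Its progenitors are ordered along the head-to-tail axis, marked caudally by HOX genes, and along the back-to-belly axis. BMP and WNT ligands from the roof plate promote dorsal fates, and Sonic hedgehog from below promotes ventral ones. Fibroblast growth factor (FGF) signalling keeps caudal progenitors immature, and early epithelial cells of the embryo depend strongly on glycolysis.

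The day 6 cells held a median of 59014 UMIs and 6728.5 detected genes, and the day 7 cells 48466 UMIs and 6529 genes. The median mitochondrial share was 4.10% and 4.35%. In all, 3 cell barcodes occurred in both libraries. Doublets were not called. 3 of the deposited classes had at least 50 cells on both days. The class named mid/hindbrain comprised deposited clusters 0, 1, 3, 4, 6 and 7. The sum of its 12 regional markers was 314 CPM (UMIs of a gene scaled to a common library size and given per 1000000 UMIs) at day 6 and 398 CPM at day 7. Its hindbrain markers were present, with Hoxa2, active from the second rhombomere backwards, at 35.0 and 147 CPM. Otx2, which defines forebrain and midbrain, was close to absent at 0.762 and 1.19 CPM. Among the 10 genes that led cluster 0 at day 6 over the other cells was the epithelial marker Epcam. The proliferation marker Ccnb1 was among the first 10 of cluster 3 on both days. No mid/hindbrain marker was among the leading genes of any of the 6 clusters, so values of this class are also given by cluster. The spinal cord class was cluster 2, and HOX genes led it on both days.

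The third class carries the deposited name pre-EMT cranial neural crest. Among its leading genes were Tagln, Sfn, Hspb1, H19, Krt8 and Cldn4 at day 6 and Spink1, H19, Epcam and Krt8 at day 7. On both days 3 surface ectoderm markers and no neural crest marker were among its first 10. All 8 pre-migratory crest markers were detected in it, at a summed 129 CPM at day 6 and 463 CPM at day 7, but the sums in the mid/hindbrain class were close, at 117 and 389 CPM. Migratory crest markers were higher in it, at a summed 84.3 and 100 CPM, against 29.4 and 45.7 CPM in the mid/hindbrain class. The neural crest gene list summed to 355 and 267 CPM, against 229 and 170 CPM. Surface ectoderm markers summed to 1522 and 320 CPM, against 114 and 21.1 CPM in the mid/hindbrain class. It is called cluster 8 here.

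The mid/hindbrain class took up 90.5% of cells at day 6 (2173 cells, 95% interval 89.2 to 91.6%) and 82.2% at day 7 (2108 cells, 80.6 to 83.6%). The spinal cord class went from 5.45% (131 cells, 4.58 to 6.44%) to 3.35% (86 cells, 2.69 to 4.12%). Cluster 8 went from 2.16% (52 cells, 1.62 to 2.83%) to 5.19% (133 cells, 4.36 to 6.12%). Its leading genes differed between days, so its cells are not shown to be of the same kind. Pre-EMT vagal/trunk neural crest made up 1.87% (45 cells) and 1.17% (30 cells). The intervals of that class overlap, and under a narrower cell filter its shares were 0.8065% and 1.01%, in the opposite order. HOX and caudal genes were among its leading genes at day 6. At day 7 Aldh1a2 and Col14a1 came first, followed mainly by HOX genes. No crest marker was among its first 10 genes on either day.

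Several classes had few or no cells at day 6. The class with the deposited name dorsal progenitor 2/3 (dP2/3) held 1 cell at day 6 and 67 at day 7 (2.61%, 2.03 to 3.31%). None of the markers of such progenitors was among its first 10 genes at day 7, which held 1 marker of dorsal interneurons and 1 of neural crest and were led by Tfap2b. The proliferative neural progenitor class held 0 and 82 cells (3.20%, 2.55 to 3.95%) and was led at day 7 by genes of cells that begin to form neurons, among them Insm1 and Gadd45g. Migratory cranial neural crest held 0 and 37 cells (1.44%, 1.02 to 1.98%), led by the crest regulators Sox10, Foxd3 and Ets1. An observed 0 among the day 6 cells allows a share of up to 0.125%. Dorsal interneuron 3 (dI3) and dorsal progenitor 1 (dP1) held 14 and 7 cells at day 7 and none at day 6.

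**Figure D1:**
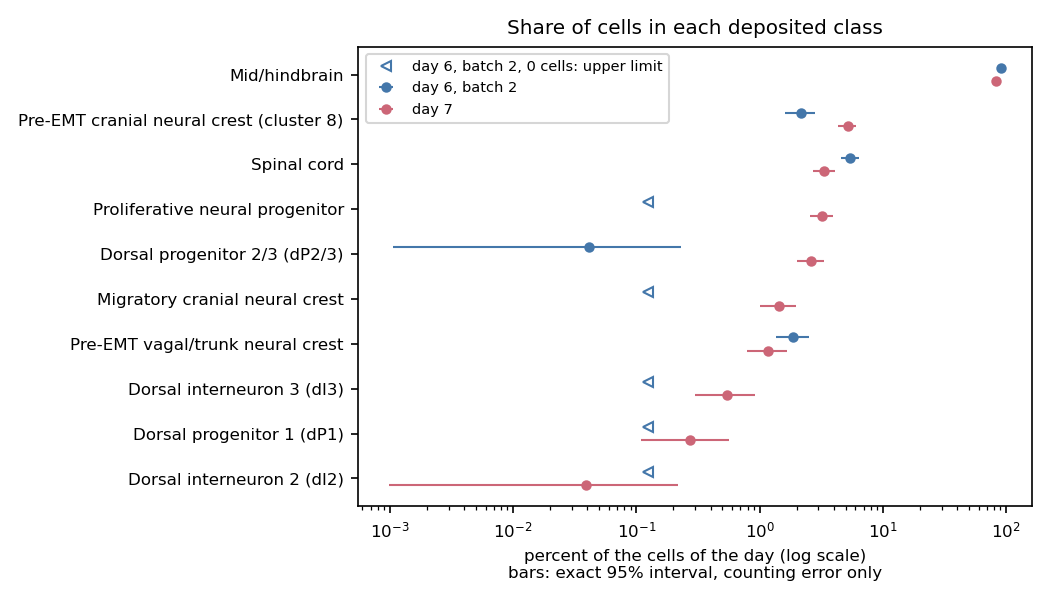
Share of cells in each deposited class, in percent on a log axis, at day 6 batch 2 (blue, 2402 cells) and day 7 (red, 2565 cells). Bars are exact 95% intervals for counting error, and open triangles mark the upper limit where 0 cells were seen. The mid/hindbrain class lies at 90.5% and 82.2%, and the classes at the limit on day 6 reach up to 3.20% on day 7.

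Over all cells, 15976 genes had at least 30 UMIs over the pair of libraries. Of these, 2927 (18.3%) were at least 2-fold apart, the size used below to say that a gene rose or fell: 1321 (8.27%) were higher and 1606 (10.1%) lower at day 7. At least 4-fold apart were 417 higher (2.61%) and 574 lower (3.59%). The median log2 ratio of day 7 to day 6 over all compared genes was 0.00. As an alternative, day 7 sums of the classes with at least 50 cells on both days were reweighted to their day 6 shares. Other classes were left out on both days. At these day 6 class shares, 2766 of the 2927 genes remained at least 2-fold apart in the same direction.

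**Figure D2:**
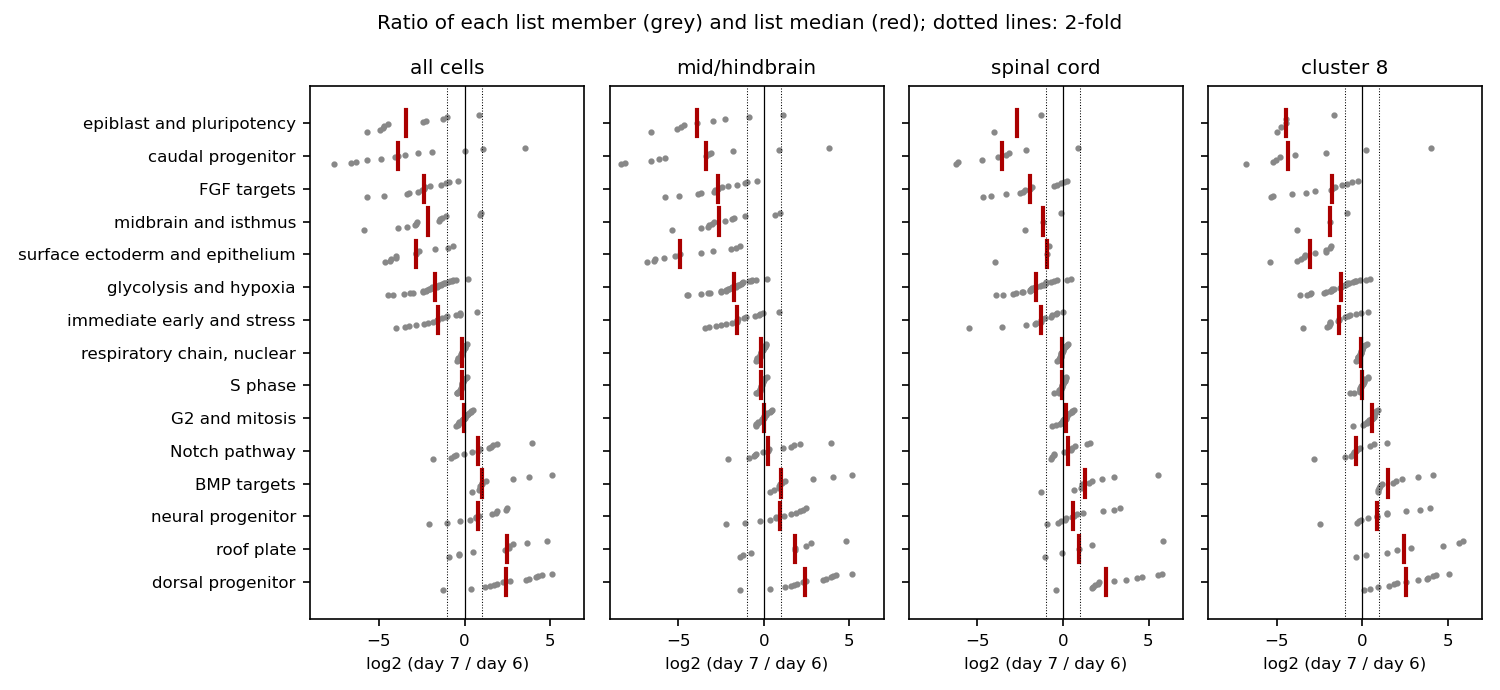
Log2 ratio of day 7 to day 6 for the members of 15 gene lists over all cells, in the mid/hindbrain class, in the spinal cord class and in cluster 8. Grey dots are genes, red bars are medians and dotted lines mark 2-fold. The dorsal progenitor median lies at 2.44 over all cells and the glycolysis and hypoxia median at -1.75, with the respiratory chain median at -0.17.

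Genes that pattern the dorsal neural tube rose. Wnt1, the ligand of the dorsal midline and the isthmus (chromosome 15, 98789857 to 98793830, GRCm38.p6), stood at 2.25 CPM at day 6 and 64.7 CPM at day 7, 28.8-fold higher (95% interval 25.7 to 32.4). Msx1 (chromosome 5, 37820491 to 37824585) and Msx2, homeobox targets of BMP signalling, went from 10.3 to 141 CPM and from 1.09 to 37.9 CPM, 13.6-fold and 34.6-fold higher. With the day 6 library of batch 1 in place of batch 2, their log2 ratios were 1.77 in place of 3.77 and 2.91 in place of 5.10, and that of Wnt1 was 3.57 in place of 4.84. Zic1 (chromosome 9, 91358058 to 91365768), a zinc-finger factor of the dorsal tube, went from 10.5 to 129 CPM (12.3-fold, 11.7 to 13.0). In the dorsal progenitor list, 12 of the 14 compared genes rose and 1 fell, with a median log2 ratio of 2.44. Pax3 went from 32.2 to 122 CPM, Pax7 from 6.74 to 32.3 CPM and Msx3 from 27.7 to 172 CPM. Olig3, which marks the most dorsal progenitors, stood at 40.6 and 52.3 CPM and did not reach 2-fold. Zic2 and Zic5, further zinc-finger factors, rose from 46.4 to 108 CPM and from 30.7 to 101 CPM. These values describe the level summed over cells: more cells with the RNA and more RNA per cell contribute alike.

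Roof plate genes rose at lower levels, 6 of 10 over all cells, with none lower and a median log2 ratio of 2.47. In the mid/hindbrain class 5 of 8 rose and 2 fell, and against batch 1 over all cells 4 of 8 rose and 1 fell. Rspo1 and Rspo3, secreted enhancers of WNT signalling, went from 4.67 to 23.9 CPM and from 2.24 to 13.6 CPM. Lmx1a, the factor that specifies the roof plate, went from 0.423 to 2.62 CPM. Lmx1b stood at 2.79 and 2.27 CPM. Of 10 BMP target genes 6 rose and none fell (median 1.03, near the 2-fold line). Against batch 1, where 22% of all compared genes were at least 2-fold apart, 3 BMP targets rose and none fell. With 1 CPM added, where 7.12% of all compared genes were, 4 rose. Smad7, an inhibitor induced by the pathway, went from 5.59 to 39.7 CPM, and Id2 from 302 to 724 CPM. Id1 and Id3 stood just under 2-fold, at 366 and 693 CPM and at 489 and 923 CPM. Msx1 and Msx2 belong to both the dorsal and the BMP list. Of 13 genes listed as WNT targets 5 rose and 2 fell (median 0.37). Among those that rose was the ligand Wnt1, which is also in the roof plate list. Axin2, a general readout of the pathway, was at 46.9 and 59.6 CPM, and the WNT inhibitor Dkk1 fell from 11.0 to 1.03 CPM.

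Counted per cell after thinning to 10000 UMIs, a Wnt1 UMI was found in 1.42% of day 6 cells (95% interval 0.985 to 1.98%) and in 32.3% of day 7 cells (30.5 to 34.1%). Unthinned, the shares were 7.12% and 57.9%. Zic1 was found in 8.60% and 62.6% of thinned cells (34.2% and 91.2% unthinned) and Msx1 in 6.34% and 59.9% (22.9% and 89.0% unthinned). Nr2f1, an orphan nuclear receptor of neural progenitors (chromosome 13, 78188971 to 78198873), was found in 15.5% (14.1 to 17.0%) and 95.4% (94.5 to 96.2%) of thinned cells (42.6% and 99.5% unthinned). Nr2f1 was thus seen in nearly every day 7 cell with or without thinning, and Wnt1 in fewer cells than Nr2f1, Zic1 or Msx1 in either count. For comparison, a UMI of the trunk gene Hoxb9 was found in 1.43% and 0.143% of thinned mid/hindbrain cells. Whether these UMIs are background was not tested.

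Among the 12 highest ratios over all cells were further neural genes. Nr2f1 went from 25.7 to 440.03 CPM, 17.1-fold higher (16.6 to 17.7). Unc5c, a netrin receptor, went from 0.999 to 32.8 CPM (32.8-fold). Pou3f2, a POU factor of neural precursors, went from 4.20 to 62.6 CPM (14.9-fold). Gadd45g, which marks cells leaving the progenitor state, went from 3.78 to 47.3 CPM (12.5-fold). At day 6 class shares the log2 ratio of Gadd45g was 2.56 against 3.64 with all cells. Maob, a mitochondrial amine oxidase, went from 1.04 to 20.9 CPM, Clec2l from 1.74 to 21.5 CPM and the predicted gene Gm32061 from 0.627 to 29.6 CPM. Maob and Clec2l were low again in the later libraries of the table, at 2.24 and 3.32 CPM at day 8, while Nr2f1 stood at 452 CPM.

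Neural progenitor genes split by kind. The intermediate filaments Nes and Vim went from 27.8 to 154 CPM (5.56-fold) and from 72.1 to 382 CPM (5.30-fold), Fabp7, a fatty acid binding protein of radial progenitors, from 136 to 405 CPM, and Rfx4 from 35.8 to 126 CPM. The SOXB1 factors that maintain the progenitor state did not rise: Sox1 stood at 73.1 and 60.1 CPM, Sox2 at 222 and 279 CPM, and Sox3 fell from 132 to 31.4 CPM. Of the 12 listed genes 5 rose and 2 fell, with a median log2 ratio of 0.77.

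Genes of the earlier embryo fell. Wnt8a, a WNT ligand of the early caudal embryo, went from 71.2 to 0.350 CPM, 204-fold lower (95% interval 152 to 278). Pou5f1, the pluripotency factor also called Oct4 (chromosome 17, 35506032 to 35510777), went from 54.1 to 1.95 CPM (27.8-fold, 24.5 to 31.6). In thinned cells a Wnt8a UMI was found in 40.0% (38.1 to 42.0%) at day 6 and 0.391% (0.188 to 0.718%) at day 7, and unthinned in 80.9% and 1.64%. Pou5f1 was found in 32.4% (30.6 to 34.3%) and 1.64% (1.19 to 2.21%) of thinned cells, and unthinned in 72.1% and 8.34%. Of the 10 compared genes of epiblast and pluripotency 9 fell and none rose (median -3.45): Nanog went from 6.59 to 0.114 CPM and Dnmt3b, the de novo DNA methyltransferase, from 152 to 32.4 CPM. Other low ratios were those of Epha2, an ephrin receptor (27.9 to 0.509 CPM, 54.7-fold lower), Pim2, a kinase (72.1 to 3.82 CPM), Klf2, a Krüppel-like factor (80.1 to 4.88 CPM), Upp1, uridine phosphorylase (77.8 to 4.25 CPM), and Slc7a3, a transporter of cationic amino acids (23.4 to 1.63 CPM). Phox2a, a factor of cranial motor and autonomic neurons, fell from 21.5 to 0.745 CPM.

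FGF signalling genes fell as a group. Fgf8, the ligand made by caudal progenitors and the isthmus, went from 10.7 to 0.190 CPM (56.5-fold lower), and Fgf15 from 50.3 to 4.80 CPM (10.5-fold). Of 13 genes listed as FGF targets 11 fell and none rose (median -2.37). Etv4 and Etv5, ETS factors induced by FGF, went from 8.23 to 0.297 CPM and from 12.1 to 1.82 CPM, and Dusp6 and Spry2, its feedback inhibitors, from 24.5 to 4.74 CPM and from 38.2 to 9.61 CPM. Spred1 was at 56.7 and 43.1 CPM and Spred2 at 35.4 and 18.7 CPM, both short of 2-fold. In the caudal progenitor list, which shares Fgf8, 10 of 13 compared genes fell and 2 rose (median -3.88). The trunk homeobox gene Cdx2 went from 7.91 to 0.0836 CPM (94.6-fold lower) and Nkx1-2 from 8.20 to 0.0684 CPM, while Wnt3a went up from 0.262 to 3.22 CPM.

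Midbrain and isthmus genes fell too, 10 of 12 with none higher (median -2.15). Gbx2, which sets the anterior limit of the hindbrain, went from 41.7 to 5.82 CPM (7.18-fold lower), Pax2 from 8.39 to 1.10 CPM and En1 from 2.92 to 1.05 CPM. Pax8 went from 0.846 CPM to 0 UMIs, at least 37.1-fold lower against a floor of 3 UMIs. Of the 10 measured ventral genes, 9 stood under 5 CPM on both days, and Irx3, a factor of the intermediate and ventral tube, stood at 98.4 and 72.2 CPM. Of 8 compared, 4 fell and none rose, with Nkx6-1 at 3.70 and 0.236 CPM and Olig2 at 0.146 and 0.0760 CPM. Shh and Nkx2-2 are not among the genes of the table. In the retinoic acid list 6 of 13 genes fell and 1 rose. Stra6, the retinol importer, went from 23.2 to 1.25 CPM (18.6-fold lower), and the receptor Rarg from 11.8 to 1.83 CPM. The degrading enzyme Cyp26b1 rose from 1.36 to 10.4 CPM and Cyp26a1 fell from 3.58 to 0.312 CPM. Crabp1, the carrier of retinoic acid, stood at 3550 and 3991 CPM.

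Genes of glycolysis and the hypoxia response fell together. Of 26 listed genes 20 fell and none rose over all cells, with a median log2 ratio of -1.75 against 0.00 over all genes. Slc16a3, which exports lactate (chromosome 11, 120948484 to 120959000), went from 198 to 8.85 CPM, 22.4-fold lower (95% interval 21.1 to 23.8). A UMI of Slc16a3 was found in 74.2% (72.4 to 76.0%) and 7.74% (6.74 to 8.85%) of thinned cells, and in 97.0% and 31.9% unthinned. Ldha, lactate dehydrogenase A (chromosome 7, 46842274 to 46855627), went from 1847 to 388 CPM (4.77-fold lower, 4.72 to 4.81). The glucose transporter Slc2a1 went from 315 to 58.1 CPM (5.42-fold lower), and the glycolytic enzyme Tpi1 from 778 to 184 CPM (4.23-fold lower). Bnip3, a mitophagy receptor, Ddit4, an inhibitor of mTORC1, and Adm, the peptide hormone adrenomedullin, are known hypoxia targets. They went from 98.2 to 12.1 CPM, from 137 to 11.8 CPM and from 7.67 to 0.403 CPM. The 6 genes that did not reach 2-fold included Gapdh (4265 and 2404 CPM), Gpi1 (252 and 150 CPM) and Hk1 (5.53 and 6.25 CPM).

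**Figure D3:**
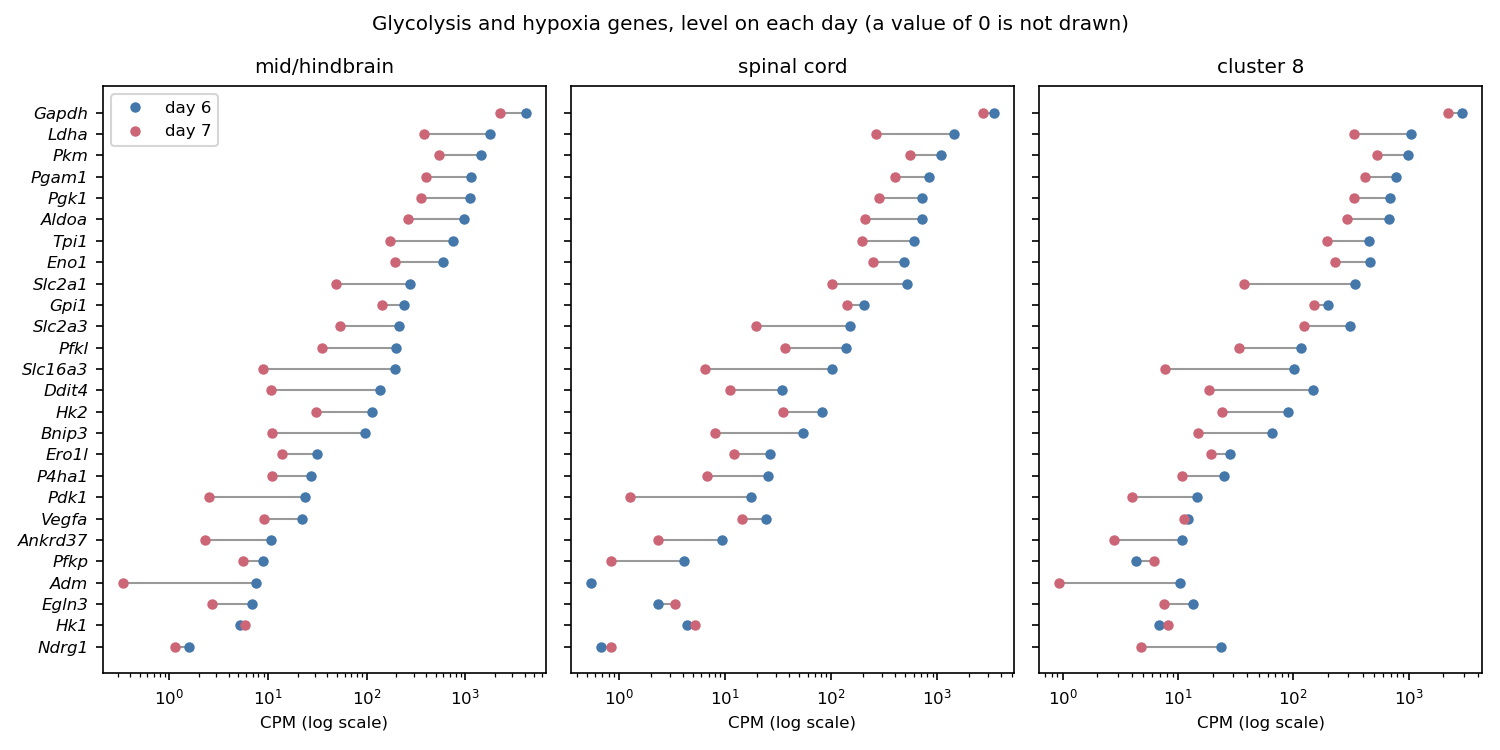
CPM on a log axis of the 26 glycolysis and hypoxia genes at day 6 (blue) and day 7 (red) in the mid/hindbrain class, the spinal cord class and cluster 8. Values of 0 are not drawn. In the mid/hindbrain class Slc16a3 lies at 195 and 8.82 CPM and Ldha at 1787 and 385 CPM, and Hk1 at nearly the same level on both days.

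Promoter sequences of 6 of the members at least 4-fold lower, 4 with a match and 2 without, are shown to place the DNA letters ACGTG in them. The window ran from 250 bases before to 50 bases after the transcription start (300 bases, RefSeq, GRCm38.p6, written 5′ to 3′ on the gene's strand). The letters ACGTG, a form of the core of the hypoxia response element, were searched on both strands (CACGT on the other), and matches are in capitals. Other forms of the core were not searched, so a window without a match may still hold such a form. On both strands the letters overlap each other within CACGTG. Of 11 members at least 4-fold lower, 10 had a window in the table and 6 of these held a match: Slc2a1, Ldha, Slc16a3, Bnip3, Ankrd37 and Ddit4. Pfkl, Tpi1, Pdk1 and Adm held no match to ACGTG. Among all 11821 genes with a window, 28.7% held a match in at least 1 window. Slc16a3 (chr11:120948817-120949116, plus strand) had 2 matches, Ldha (chr7:46845554-46845853, plus strand) 5, with none in its other window (chr7:46846832-46847131), Bnip3 (chr7:138909457-138909756, minus strand) 2 and Ddit4 (chr10:59951721-59952020, minus strand) 1. Tpi1 (chr6:124814109-124814408, minus strand) and Adm (chr7:110627407-110627706, plus strand) had none in these windows.
Slc16a3: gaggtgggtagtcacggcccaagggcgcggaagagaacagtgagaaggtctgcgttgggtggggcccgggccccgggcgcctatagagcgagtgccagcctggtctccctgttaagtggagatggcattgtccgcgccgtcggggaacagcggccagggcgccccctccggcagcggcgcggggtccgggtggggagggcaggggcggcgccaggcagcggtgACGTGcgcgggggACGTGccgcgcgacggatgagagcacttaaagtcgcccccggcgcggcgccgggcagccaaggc
Ldha: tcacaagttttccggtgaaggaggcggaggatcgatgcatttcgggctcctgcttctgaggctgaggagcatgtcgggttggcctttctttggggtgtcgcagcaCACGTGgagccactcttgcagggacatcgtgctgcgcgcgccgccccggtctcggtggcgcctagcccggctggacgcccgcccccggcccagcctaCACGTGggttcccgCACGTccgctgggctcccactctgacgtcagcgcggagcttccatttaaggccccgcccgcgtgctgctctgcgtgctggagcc
Bnip3: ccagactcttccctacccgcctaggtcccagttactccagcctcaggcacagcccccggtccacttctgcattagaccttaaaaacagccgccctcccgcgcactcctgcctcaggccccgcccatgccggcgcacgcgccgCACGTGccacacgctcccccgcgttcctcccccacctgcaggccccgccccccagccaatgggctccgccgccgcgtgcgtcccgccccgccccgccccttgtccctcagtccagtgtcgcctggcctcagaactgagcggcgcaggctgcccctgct
Ddit4: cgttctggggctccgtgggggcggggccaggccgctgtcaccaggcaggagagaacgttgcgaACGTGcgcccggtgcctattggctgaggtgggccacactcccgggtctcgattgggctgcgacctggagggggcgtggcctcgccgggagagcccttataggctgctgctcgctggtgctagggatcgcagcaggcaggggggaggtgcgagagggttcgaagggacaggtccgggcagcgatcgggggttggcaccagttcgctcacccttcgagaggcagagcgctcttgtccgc
Tpi1: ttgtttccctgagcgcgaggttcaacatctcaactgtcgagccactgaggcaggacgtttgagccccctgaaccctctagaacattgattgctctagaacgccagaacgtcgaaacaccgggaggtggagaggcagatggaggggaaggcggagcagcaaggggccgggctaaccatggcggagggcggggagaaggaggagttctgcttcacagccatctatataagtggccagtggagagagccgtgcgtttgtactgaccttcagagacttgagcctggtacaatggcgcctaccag
Adm: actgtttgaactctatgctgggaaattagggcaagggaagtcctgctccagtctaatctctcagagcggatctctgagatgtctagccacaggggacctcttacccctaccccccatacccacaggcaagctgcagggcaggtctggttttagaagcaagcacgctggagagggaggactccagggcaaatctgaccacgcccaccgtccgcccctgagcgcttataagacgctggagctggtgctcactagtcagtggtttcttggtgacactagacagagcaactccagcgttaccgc

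The lower glycolysis signal was seen cell by cell. In cells thinned to 10000 UMIs, the 26 genes gave a median of 126 UMIs per mid/hindbrain cell at day 6 (10th to 90th percentile 77 to 186) and 51 at day 7 (40 to 64). All day 7 mid/hindbrain cells (100%) lay below the day 6 median. In the spinal cord class the medians were 92 and 54.5 UMIs, and in cluster 8 they were 82.5 and 52 UMIs. Day 6 cells were more spread than day 7 cells, and day 6 medians differed between classes more than day 7 medians did. The median log2 ratio of the list was -1.76 in the mid/hindbrain class (21 of 26 genes lower), -1.60 in the spinal cord class (17 of 24) and -1.22 in cluster 8 (17 of 26). In the later libraries of the same table Ldha was at 135 CPM at day 8 and 646 CPM at day 10, and Slc16a3 at 2.22 and 38.7 CPM.

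**Figure D4:**
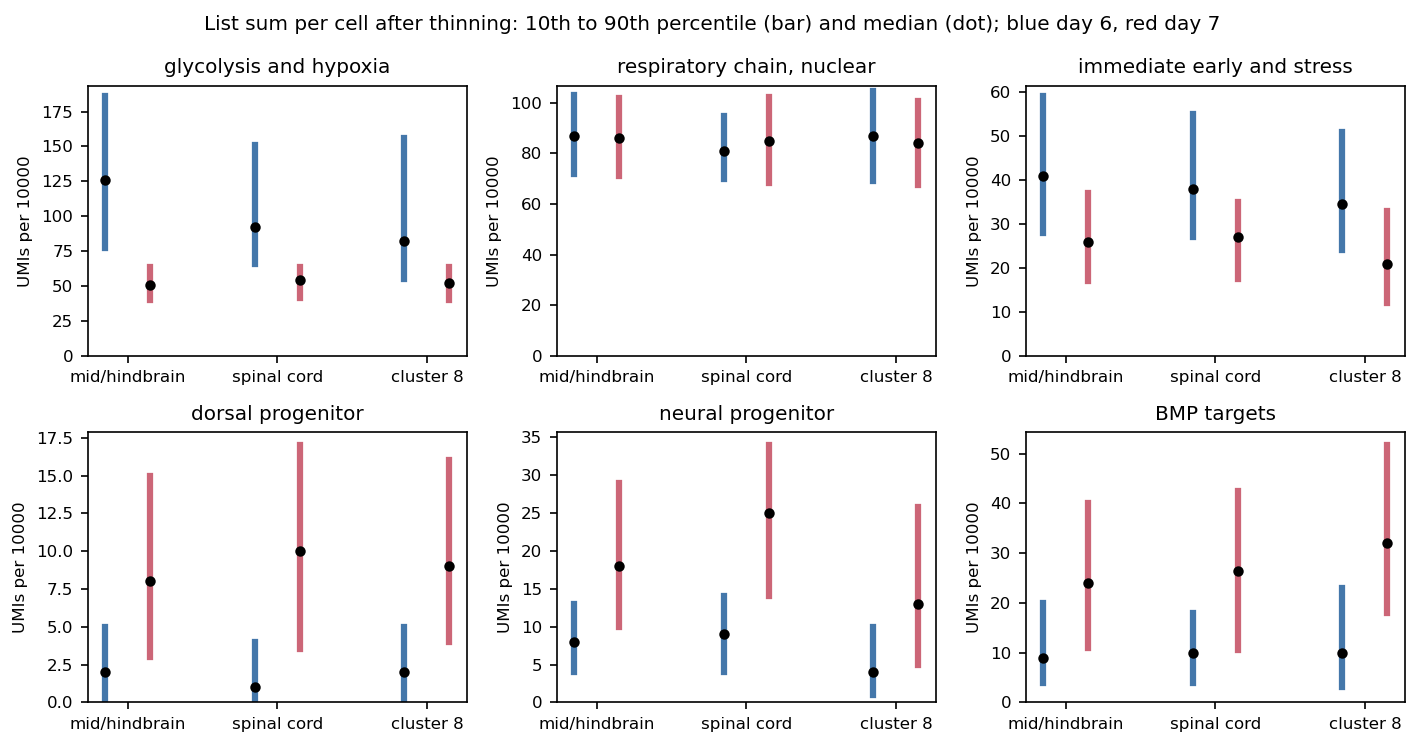
Sum of the UMIs of 6 gene lists per cell, in cells thinned to 10000 UMIs, by class and day. Dots are medians and bars run from the 10th to the 90th percentile of cells. For glycolysis and hypoxia the mid/hindbrain medians lie at 126 and 51 UMIs, and for the respiratory chain at 87 and 86 UMIs.

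Genes of the respiratory chain did not move with those of glycolysis. None of 21 nuclear-encoded subunits reached 2-fold over all cells (median -0.17), and none did so in the mid/hindbrain class, the spinal cord class or cluster 8. Cox4i1 stood at 1045 and 915 CPM and Ndufa4 at 868 and 832 CPM. Their summed UMIs per thinned cell had medians of 87 and 86 in the mid/hindbrain class and 81 and 85 in the spinal cord class. None of 18 S phase genes and none of 18 genes of G2 and mitosis reached 2-fold (medians -0.16 and -0.01). The S phase genes gave 25 UMIs per thinned mid/hindbrain cell on both days.

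Immediate early and stress genes, which also respond to handling of cells, were lower at day 7. Of 18 listed 13 fell and none rose (median -1.56). Egr1 went from 244 to 21.7 CPM (11.2-fold lower), Fosb from 141 to 14.7 CPM (9.58-fold) and Fos from 290 to 65.5 CPM (4.42-fold). Jund stood at 239 and 198 CPM and the chaperone gene Hsp90aa1 at 2837 and 1981 CPM. Their summed UMIs per thinned mid/hindbrain cell had medians of 41 and 26. Both libraries were dissociated by the same protocol, and the part of handling in the difference was not tested. Among 14 p53 target genes 3 fell and 1 rose, with Cdkn1a at 57.4 and 20.6 CPM and Mdm2 at 37.5 and 36.7 CPM.

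Notch genes changed in opposite directions. Hes5, the Notch effector of neural progenitors, went from 38.9 to 144.0 CPM (3.70-fold higher), while Hes1, another effector, fell from 154 to 42.4 CPM. The feedback gene Nrarp rose from 9.04 to 28.5 CPM and Lfng, which modifies the receptor, from 7.86 to 22.5 CPM. The receptors Notch1 (25.3 and 33.9 CPM), Notch2 (20.7 and 20.3 CPM) and Notch3 (13.0 and 9.28 CPM) did not reach 2-fold. Of 13 listed genes 5 rose and 1 fell. The ligand Dll3 rose over all cells, from 2.94 to 8.09 CPM, but stood at 2.61 and 1.84 CPM in the mid/hindbrain class, and its log2 ratio at day 6 class shares was -0.60 in place of 1.46. Of the 5 genes that rose, 4 had a promoter window, and the windows of Hes5 (chr4:154960673-154960972, plus strand) and Lfng (chr5:140607091-140607390, plus strand) each held 2 matches to TGGGAA, the core read by the Notch cofactor RBPJ (TTCCCA on the other strand, in capitals). Among all genes with a window, 26.6% held a match.
Hes5: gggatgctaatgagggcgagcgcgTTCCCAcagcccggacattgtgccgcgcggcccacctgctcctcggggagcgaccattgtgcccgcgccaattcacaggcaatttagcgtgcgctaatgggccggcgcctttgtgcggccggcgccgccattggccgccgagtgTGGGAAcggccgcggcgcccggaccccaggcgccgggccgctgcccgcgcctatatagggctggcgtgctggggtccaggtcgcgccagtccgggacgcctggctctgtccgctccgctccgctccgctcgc
Lfng: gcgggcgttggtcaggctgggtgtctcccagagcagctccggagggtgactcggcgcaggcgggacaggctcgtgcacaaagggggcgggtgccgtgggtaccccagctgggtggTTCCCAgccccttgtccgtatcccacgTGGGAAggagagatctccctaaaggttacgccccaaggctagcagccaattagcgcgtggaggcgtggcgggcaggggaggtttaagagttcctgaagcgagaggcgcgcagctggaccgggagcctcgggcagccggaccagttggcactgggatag

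More neuronal genes rose than fell over all cells, but not within the mid/hindbrain class. Of 14 genes of neurogenic progenitors and neurons 11 rose and 1 fell over all cells (median 1.78), and in the mid/hindbrain class 4 of 12 rose and 4 fell (median 0.36). At day 6 class shares the median over all cells was 0.34. The sum of the list was 197 and 173 CPM over all cells and 191 and 92.0 CPM in the mid/hindbrain class, and Stmn2, a regulator of microtubules, held most of it at day 6. Tubb3, a neuronal tubulin, went from 11.3 to 48.5 CPM over all cells and from 10.4 to 22.7 CPM in the mid/hindbrain class. Insm1 went from 0.518 to 11.6 CPM and from 0.415 to 3.31 CPM. Elavl3 rose over all cells, from 5.13 to 14.2 CPM, but stood at 4.71 and 5.62 CPM in that class. Stmn2 fell in both, from 164 to 43.5 CPM over all cells. Neural crest genes showed the same reliance on class shares. Of 12 listed 6 rose and 1 fell over all cells (median 1.13, and 0.42 at day 6 class shares). Sox10 went from 0.321 to 2.88 CPM over all cells and stood at 0.302 and 0.174 CPM in the mid/hindbrain class. Tfap2b went from 0.146 to 9.72 CPM over all cells (66.6-fold) and from 0.136 to 0.391 CPM in that class.

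Epithelial genes fell, and adhesion and guidance genes moved in both directions. Of 11 compared genes of surface ectoderm and epithelium 9 fell and none rose (median -2.86). Epcam, an epithelial adhesion molecule, went from 56.0 to 3.49 CPM (16.0-fold lower) and Cdh1, E-cadherin, from 10.2 to 0.479 CPM. Krt8 and Krt18 stood at 36.1 and 22.4 CPM and at 41.3 and 21.1 CPM. Among the other cadherins, Cdh2, N-cadherin of the neural tube, was at 101 and 159 CPM, and Cdh11 rose from 3.48 to 20.1 CPM. In the axon guidance list 8 of 25 genes rose and 5 fell (median 0.74). Slit2, a repellent ligand, went from 4.71 to 30.0 CPM and Epha7, an ephrin receptor, from 17.3 to 176 CPM. Ntn1, netrin, fell from 20.8 to 2.70 CPM. Of 16 genes of planar cell polarity 2 rose and 4 fell: Fzd3 went from 80.6 to 168 CPM and Wnt5a from 7.12 to 2.52 CPM. Vangl2, a core member, stood at 64.2 and 71.2 CPM. Of 14 collagen, laminin and related matrix genes 4 rose and 3 fell, with Col2a1 going from 25.1 to 69.4 CPM and Col18a1 from 86.8 to 40.9 CPM. Among 15 imprinted genes the maternally expressed Meg3 and Rian fell from 917 to 252 CPM and from 336 to 75.3 CPM, and Nnat rose from 308 to 773 CPM.

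By absolute difference in CPM, the largest gain was that of Tmsb4x, which sequesters actin, from 539 to 1717 CPM (3.19-fold higher). Next were the mitochondrial transcripts mt-Cytb (4808 and 5805 CPM) and mt-Atp6 (9895 and 10468 CPM), then Nnat, Crabp1 and Mest (619 and 1060 CPM). The largest losses were those of Ptma (9611 and 6218 CPM) and Mif, a cytokine gene, which fell from 3855 to 1766 CPM (2.18-fold lower). They were followed by mt-Co3, Npm1, Gapdh and Rpl37, each short of 2-fold. Mif was 2-fold apart by a narrow margin, and its log2 ratio was -0.99 when scaled by library size alone.

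Within the mid/hindbrain class, 2897 of 15622 genes (18.5%) were at least 2-fold apart, 1247 (7.98%) higher and 1650 (10.6%) lower. The highest ratios among genes with at least 50 CPM on the higher day included Wnt1 (2.17 to 60.7 CPM), Nr2f1 (24.1 to 428 CPM), Msx1 (7.63 to 128 CPM), Ly6h (6.30 to 83.2 CPM) and Casz1, a zinc-finger factor (6.04 to 74.4 CPM). The lowest were those of Wnt8a (69.0 to 0.200 CPM), Epcam (50.04 to 1.69 CPM), Pou5f1 (51.0 to 1.75 CPM) and Slc16a3 (195 to 8.82 CPM). Cdx2 went from 4.36 CPM to 0 UMIs, at least 167-fold lower. All 11 compared genes of surface ectoderm and epithelium fell in this class, with a median log2 ratio of -4.87, or -4.46 with genes at 0 UMIs set at their bound. HOX genes of groups 5 to 9 were low, summing to 11.1 and 2.88 CPM, and 6 of 7 compared fell. Of 12 genes of HOX groups 1 to 4, which pattern the hindbrain, 1 rose and 5 fell (median -0.84). Hoxa2 rose, Hoxb2 stood at 118 and 187 CPM, and Hoxb1 fell from 69.0 to 15.3 CPM. Egr2, a marker of rhombomeres, stood at 17.97 and 32.9 CPM.

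The clusters of the class were led at day 6 mainly by histone, replication or mitosis genes, except cluster 7, which was led by Dnajb14, Dqx1 and Txnip. The genes and lists given next had 1 direction in all 6. They held between 96 and 766 cells at day 6 and between 192 and 569 at day 7. Between 11.1% and 15.8% of their compared genes were at least 2-fold apart. Ldha fell in 6 of 6 clusters, with log2 ratios from -2.36 to -2.11, and Slc16a3 in 6 of 6, from -4.82 to -4.18. Wnt1 rose in 6 of 6, from 4.28 to 5.29, Nr2f1 from 3.70 to 4.47 and Msx1 from 3.96 to 4.49. Zic1, Nes, Vim and Hoxa2 rose and Wnt8a, Pou5f1, Gbx2, Egr1 and Stmn2 fell in 6 of 6. The median of the glycolysis list ranged from -1.84 to -1.65 over clusters, with 19 to 21 genes lower, and that of the dorsal list from 2.26 to 2.50. All 6 clusters come from the same 2 libraries, so they are not replicates.

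In the spinal cord class 845 of 10379 genes (8.14%) were at least 2-fold apart, 368 (3.55%) higher and 477 (4.6%) lower. Fewer cells gave fewer UMIs per gene here, and fewer genes could be compared. Over the 10372 genes compared both here and in the mid/hindbrain class, 840 were at least 2-fold apart here and 958 there. Zic1 showed the highest ratio, from 3.43 to 210 CPM (61.1-fold, 95% interval 41.2 to 94.9), and in 77.9% of thinned cells at day 7 (67.7 to 86.1%) against 2.29% at day 6 (0.475 to 6.55%). Msx3, a homeobox gene of the dorsal spinal cord, went from 15.6 to 202 CPM, Vim from 85.9 to 694 CPM and Fabp7 from 46.4 to 472 CPM. Dach1 and Sox9, regulators of progenitors, went from 5.08 to 79.8 CPM and from 13.6 to 55.0 CPM. In the mid/hindbrain class Dach1 went from 13.5 to 42.0 CPM and Sox9 stood at 49.9 and 43.3 CPM. Of 12 compared dorsal progenitor genes 11 rose and none fell (median 2.54). Tfap2a went from 0 UMIs to 6.32 CPM, at least 15.4-fold higher.

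The lowest ratios in the spinal cord class were those of Egr1 (229 to 4.84 CPM), Slc16a3 (103 to 6.53 CPM), Ifitm1, a gene of early embryonic cells (240 to 17.3 CPM), and Fosb (96.8 to 8.00 CPM). Some genes fell there and not in the mid/hindbrain class. Gap43, a growth cone protein, went from 54.9 to 12.0 CPM and Ncam1, an adhesion molecule, from 219 to 51.2 CPM. In the mid/hindbrain class Gap43 stood at 17.4 and 21.8 CPM and Ncam1 at 54.5 and 44.8 CPM. Ccnd2, a cyclin, went from 795 to 199 CPM in the spinal cord class and stood at 181 and 215 CPM in the mid/hindbrain class. The difference between classes was not tested.

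HOX genes of the spinal cord class moved in both directions. Of 11 compared genes of groups 5 to 9, 2 rose and 5 fell (median -0.47), and their sum was 586 CPM at day 6 and 344 CPM at day 7. The genes of these groups that rose were Hoxa5 (11.0 to 31.0 CPM) and Hoxb7 (27.4 to 58.1 CPM). Of groups 1 to 4, Hoxa2 rose from 31.1 to 102 CPM and 2 of 11 fell. The more posterior Hoxb9 (chromosome 11, 96271330 to 96276595) fell from 281 to 96.9 CPM and Hoxc8 from 40.7 to 1.47 CPM, and Hoxc9 went from 5.76 CPM to 0 UMIs, at least 9.12-fold lower. Hoxa7 and Hoxc6 fell from 35.7 to 10.1 CPM and from 30.0 to 13.1 CPM. Hoxb8 stood at 118 and 84.9 CPM, and Hoxb6 at 15.6 and 26.8 CPM. A Hoxb9 UMI was found in 77.9% of thinned cells at day 6 (69.8 to 84.7%) and 36.0% at day 7 (26.0 to 47.1%), and in 93.1% and 45.4% unthinned. Median depths in this class were 56285 and 49937 UMIs. Hoxc8 was found in 24.4% (17.3 to 32.7%) and in 1 of 86 cells. Cdx2, which activates posterior HOX genes, went from 22.9 CPM to 0 UMIs, at least 36.3-fold lower, and Wnt8a from 24.97 CPM to 0 UMIs, at least 39.5-fold lower. Of the 10 markers of the spinal cord, 10 were detected at day 6 and 7 at day 7. Whether the class held cells of the same axial levels on both days was not tested.

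In cluster 8, 1415 of 10627 genes (13.3%) were at least 2-fold apart, 794 (7.47%) higher and 621 (5.84%) lower. There were 10619 genes compared both here and in the mid/hindbrain class. Of these, 1408 were at least 2-fold apart in cluster 8 and 1151 in the mid/hindbrain class. Cluster 8 had fewer cells, and the difference was not tested. Cells of cluster 8 shared the rise of Wnt1 (2.17 to 153 CPM), Zic1 (3.62 to 134 CPM) and Nr2f1 (18.8 to 398 CPM). The roof plate list summed to 91.9 CPM at day 6 and 549.7 CPM at day 7, against 37.6 and 98.1 CPM in the mid/hindbrain class. Lmx1a went from 0 UMIs to 19.1 CPM, at least 17.6-fold higher, Rspo1 from 5.07 to 142 CPM and Rspo3 from 21.3 to 89.2 CPM. Fam181b went from 3.62 to 83.3 CPM and stood at 10.2 and 11.3 CPM in the mid/hindbrain class.

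Epithelial genes of cluster 8 fell from high levels and stayed above those of the other classes. All 10 compared genes of surface ectoderm and epithelium fell (median -3.02). Krt8 went from 643 to 149 CPM and Epcam from 211 to 31.5 CPM, against 22.5 to 7.40 CPM and 50.04 to 1.69 CPM in the mid/hindbrain class. Sfn, the epithelial protein 14-3-3 sigma, went from 89.0 to 1.74 CPM, Tagln, an actin-binding protein, from 115 to 2.14 CPM and Hspb1, a small heat shock protein, from 360 to 7.74 CPM. Trunk genes were also lost: Hoxb9 went from 57.9 CPM to 0 UMIs, at least 145-fold lower, and the summed spinal cord markers from 156 to 5.07 CPM. Tcf15, a factor of paraxial mesoderm and epithelia, went from 81.4 to 11.3 CPM. Markers of mesenchyme summed to 161 and 95.3 CPM, and their part in these differences was not tested. Genes of G2 and mitosis had a median log2 ratio of 0.59, with none of 18 at 2-fold.

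**Figure D5:**
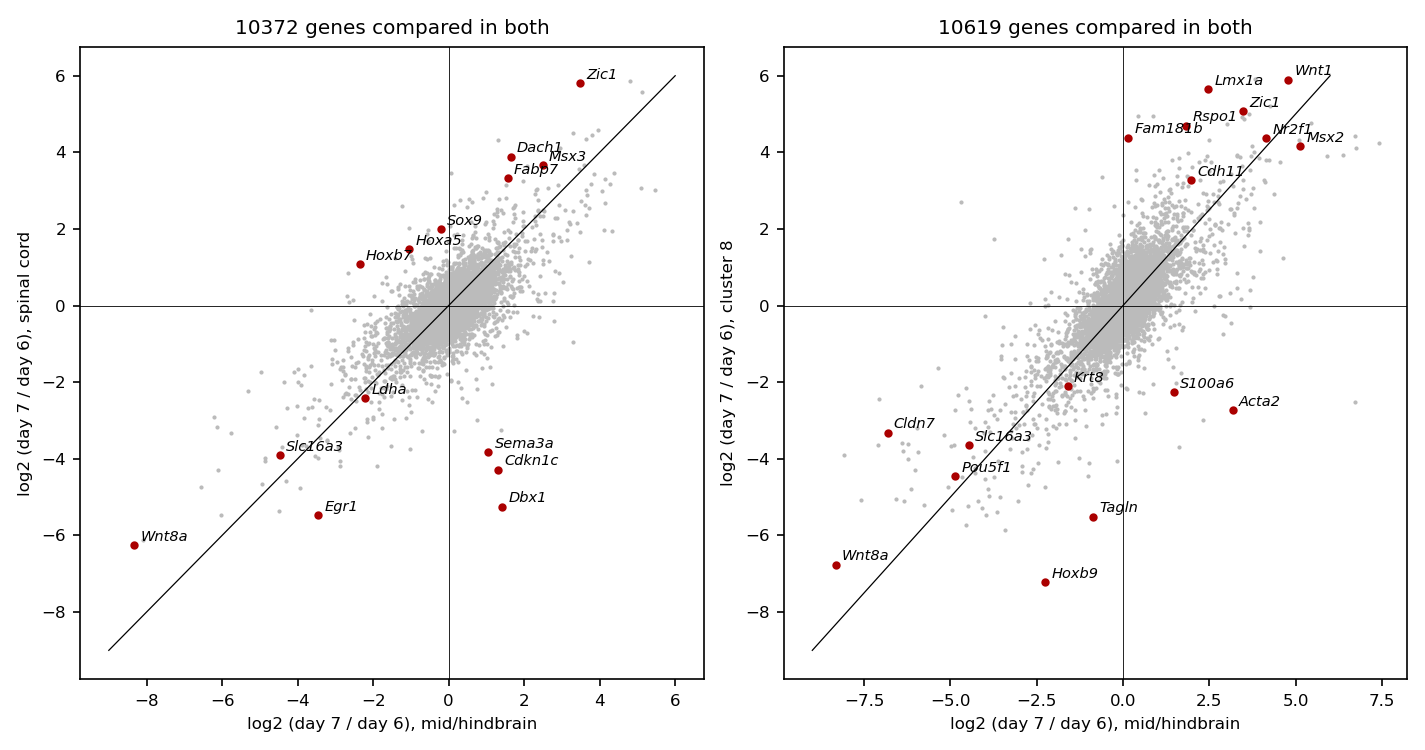
Log2 ratio of day 7 to day 6 in the mid/hindbrain class (horizontal) against the spinal cord class (left, 10372 genes) and cluster 8 (right, 10619 genes). Each dot is a gene, the diagonal marks equal ratios and named genes are in red. Hoxb7 lies at -2.36 and 1.07 on the left panel. All points rest on the same 2 libraries.

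The day 6 library of batch 1, which lies in the other deposited table, was set in place of batch 2 as an alternative. Its cells were used as deposited, and whether the cells of both tables passed the same filter is not given. Of the 2927 genes, 2701 had a symbol in that table. Among these, 2572 kept their sign against batch 1, and 1974 were at least 2-fold apart in the same direction. Of all 14578 genes compared with batch 1, 1614 were at least 2-fold higher and 1598 lower (22% in either direction). Against batch 1 the log2 ratio was -4.61 for Slc16a3, -2.72 for Ldha, 3.38 for Nr2f1, 3.57 for Wnt1 and -4.94 for Pou5f1. Of 162 named genes compared in this way over all cells, 50 moved by more than 1 on the log2 scale. Hoxb9 was among them (-4.04 in place of -1.60), as were Msx1, Msx2 and Wnt1 with the values given above. HOX groups 5 to 9 fell in 4 of 12 genes against batch 2 (median -0.95) and in 12 of 12 against batch 1 (median -3.66). In HOX groups 1 to 4, 1 of 12 genes rose and 4 fell against batch 2 (median -0.32). Against batch 1, 2 of these rose and 7 fell (median -1.33). The median of the glycolysis list was -2.02, that of the dorsal list 2.30, that of roof plate genes 1.15 and that of BMP targets 0.67. Named genes that were 2-fold apart against batch 2 and not against batch 1 included Lfng (0.55), Lmx1a (0.73), Tfap2a (0.96), Id2 (0.85), Dll3 (0.80), Ets1 (0.68), Mif (-0.82) and Meg3 (-0.83). Both values of a pair share the day 7 library.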

How the data were processed

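Single-cell RNA of elongated organoids at day 6 (batch 2) and day 7 was analysed from the table that holds both. The deposited matrix holds raw UMI counts per gene and cell (21062 genes, 11981 cells). Cell Ranger 3.1 and mm10 are named per the submitters' processing notes. The authors' cell filter and the way classes were assigned are not given in the sources used here. The deposited metadata give UMI counts and detected genes per cell, the percent of mitochondrial UMIs, and names of days, clusters and classes, which have no unit (other). UMI sums and gene numbers per cell were checked against the matrix and matched. The labels do not say whether libraries came from separate cultures.

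UMIs were summed over the cells of a day, over all cells and within each class with at least 50 cells on both days, and scaled to CPM with TMM factors (edgeR 4.0.16, R 4.3.3), over the 4 libraries of the table or the 2 sums of a class. Total UMIs were 152742819 at day 6 and 133408217 at day 7. Log2 ratios carry a prior count of 2 UMIs and were taken for genes with at least 30 UMIs over both days. A gene counts as higher or lower from 2-fold on, with no test, since each day is 1 library. Folds are ratios of CPM with exact binomial 95% intervals for counting error. Where a day had 0 UMIs, the fold is a bound against 3 UMIs. UMIs are not fully independent draws of cells, so intervals and floors cover counting error only. Shares of cells with a UMI were taken after thinning each cell to 10000 UMIs, which left out 6 day 6 and 8 day 7 cells, with Clopper-Pearson intervals. Scripts (Python 3.11.15, numpy 2.4.6, pandas 2.3.3, scipy 1.17.1) were tested on simulated data.

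Genes are named by this rule. Over all cells it takes the 12 highest and 12 lowest ratios among genes with at least 20 CPM on the higher day. In each class it takes 8 each way among genes with at least 50 CPM, and in each class but the largest the 6 each way that differ most from the largest. It adds members of the gene lists and markers, and the 6 largest CPM differences each way. The lists, markers and the comparison itself were chosen with earlier results of these data known. Alternatives were library size alone, median-of-ratios factors (DESeq2 1.42.0), other UMI minimums, 1 CPM added, equal weight per cell, other cell filters, other library totals, day 6 class shares, batch 1 for day 6, and, for shares of cells, no thinning or 5000 UMIs. Days 8 and 10 gave single levels beside a few genes, and the non-elongated library was not compared here. Values of some genes that the rule names are not reported here, and counts over lists include all members.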

Additional observations from a re-analysis of the deposited data

Results flagged for a closer look

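A few genes were at least 2-fold higher at day 7 in one class and at least 2-fold lower in another. Between the mid/hindbrain and spinal cord classes they were 15 of 10372 genes compared in both. Between the mid/hindbrain class and cluster 8 they were 20 of 10619, and between the spinal cord class and cluster 8 16 of 10037. Only those among the named genes are given here. With 1 library a day the difference between classes was not tested. Sema3a, a secreted repellent of axons, had a log2 ratio of 1.05 in the mid/hindbrain class (1.34 to 2.80 CPM) and of -3.82 in the spinal cord class (25.2 to 1.47 CPM). Dbx1, a homeobox gene of interneuron progenitors in the middle of the tube, had 1.43 (0.543 to 1.49 CPM) and -5.25 (20.3 to 0.211 CPM). Cdkn1c, an inhibitor of the cell cycle, had 1.32 in the mid/hindbrain class (1.90 to 4.75 CPM), -4.28 in the spinal cord class (26.6 to 1.05 CPM) and -1.40 in cluster 8 (10.1 to 3.60 CPM).

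Both HOX genes of groups 5 to 9 that rose in the spinal cord class were lower in the others. Hoxa5 had a log2 ratio of 1.47 there, -1.04 in the mid/hindbrain class (1.79 to 0.860 CPM) and -1.30 in cluster 8 (9.77 to 3.74 CPM). Hoxb7 had 1.07, -2.36 (2.03 to 0.382 CPM) and -2.58 (8.32 to 1.07 CPM). S100a6, a calcium-binding protein, had 1.47 in the mid/hindbrain class (10.2 to 28.5 CPM) and -2.25 in cluster 8 (197 to 41.1 CPM). Cdh6, a cadherin of crest and hindbrain cells, had -2.17 in the spinal cord class (36.4 to 7.79 CPM) and 1.57 in cluster 8 (11.2 to 34.2 CPM). Sema3a, Dbx1, Cdkn1c, S100a6 and Cdh6 were added to the named genes after their values were seen.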

How the results depend on the processing

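No paired analysis was possible because each day is 1 library, and no replicate could be left out. There were 5477 values of named genes under all settings other than batch 1 and single clusters. Of these, 5402 kept their side of 2-fold, 33 fell under it and 40 passed it. From 2-fold or more, 2 changed sign, Dll3 (-0.60) and Sox10 (-0.57) at day 6 class shares. Direction was not followed for genes under 2-fold in the main setting. Other UMI minimums change only which genes are compared, so their 609 and 476 values were the same by construction. Against batch 1, 10 of 162 values of named genes fell under 2-fold, 21 passed it and none changed sign from 2-fold or more. Not every gene kept its direction: of the 2701 genes 2-fold apart that had a symbol in the other table, 2572 kept their sign. Within single mid/hindbrain clusters, an alternative added after seeing the data, no value of 2-fold or more changed sign.

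The number of genes at least 2-fold apart depends on the filter. With a minimum of 1 UMI it was 2396 higher and 2895 lower over all cells, 2242 and 2942 in the mid/hindbrain class, 1003 and 1369 in the spinal cord class, and 1712 and 1823 in cluster 8. With a minimum of 300 UMIs it was 746 and 733, 710 and 725, 72 and 93, and 155 and 105. With 1 CPM added it was 553 and 585 over all cells and 528 and 604 in the mid/hindbrain class. Scaled by library size alone, the median log2 ratio of all genes was 0.14 over all cells and 53.3% of the genes 2-fold apart were higher, against 45.1%. With 1 CPM added, the list median over all cells was 0.88 for roof plate, -0.36 for ventral, -0.91 for midbrain and isthmus, 0.94 for BMP and 0.75 for neural crest genes. The retinoic acid list in cluster 8 went from -1.01 to 0.66 with a minimum of 300 UMIs, where 4 genes remained. Pre-EMT vagal/trunk neural crest was 0.8065% of day 6 and 1.01% of day 7 cells under the narrower cell filter, which turned their order. Cell shares with a UMI shift with the depth they are thinned to. Genes under about 1 CPM rest on few UMIs, most of all in the spinal cord class and cluster 8.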
